A study of Mus musculus with 6 samples.

Results

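The genes described here are 10 markers of reactive astrocytes: Gfap, Vim, Nes, Lcn2, Serpina3n, Timp1, Cp, Steap4, S1pr3 and Cd44. They were picked by symbol, with earlier results of these data known, and each symbol matched 1 Ensembl identifier among the 54532 in the tables. The series holds RNA-seq of the cervical spinal cord from 3 C57BL/6 mice with allergic contact dermatitis (ACD) and 3 control mice of the same strain, with 1 library per mouse. ACD was induced with the contact allergen SADBE (squaric acid dibutylester): 20 µl of a 1% solution in acetone went daily for 3 days onto shaved abdominal skin, and 5 days after that the nape was challenged with the same dose for 3 days. Control mice had acetone alone on the nape, and the labels leave it unclear whether they had also received SADBE on the abdomen. The sources used here give neither age nor sex. The skin of the nape is supplied by cervical nerves.

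Astrocytes are the glial cells that clear glutamate, buffer potassium and ensheath vessels and synapses. After injury or inflammation they become reactive: they thicken their skeleton of intermediate filaments and make secreted proteins such as lipocalin and serpins, often downstream of cytokines that act through the transcription factor STAT3. Several of the 10 genes are also made by other cells of a cord dissection, among them vessel, meningeal and ependymal cells and white blood cells. In bulk RNA, fewer cells of a type and less RNA per cell cannot be told apart.

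The unit is FPKM (read fragments scaled by the exon length of the gene and by library size), and it rests on 17346315 to 20245576 reads in the ACD libraries and 16916600 to 18583992 in the controls, as recovered from the steps between low values. Markers of the cord were present in every library. The summed FPKM of 14 genes of resting astrocytes lay at 2532 to 2761 in ACD and 2266 to 2650 in controls, and that of 8 neuron markers at 1266 to 1371 in ACD and 1003 to 1286 in controls. Each control differed from the other controls. Among the 13650 genes averaging 1 FPKM or more, 107, 64 and 34 were at least 2-fold above both other controls in controls 1, 2 and 3, and 66, 53 and 139 were at least 2-fold below both; in ACD 1 to 3 the counts against the other ACD libraries were 67, 50 and 35 above and 76, 79 and 89 below. Control 1 held RNA of 11 adipocyte genes, a list chosen after the values were seen, at a summed 337.9 FPKM, against 6.28 to 9.39 in ACD and 10.3 and 5.34 in controls 2 and 3. Ucp1, the uncoupling protein of brown fat, was at 51.8 FPKM in control 1 and at no more than 0.1002 in any other library. Control 2 held neutrophil RNA: 11 neutrophil markers summed to 109.6, 99.1 and 129.0 FPKM in ACD 1 to 3, and to 28.7, 114.8 and 26.0 in controls 1 to 3. Values without a control are given beside the results that rest on it.

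All 10 genes passed the filter of a mean of 0.1 FPKM and were tested in 1 fit over all 21369 genes that passed it. Of the 10, only Gfap differed at an adjusted p of 0.05 (limma on log2(FPKM + 0.1), Benjamini-Hochberg over all genes tested), and it was higher in ACD. Over all genes tested 4.34% passed and 1.81% were higher in ACD, and with 10 genes a count of 1 cannot be set apart from that background. Of all calls 386 were higher and 541 lower, against 208 higher and 704 lower after TPM scaling, and 492 higher and 442 lower after correction for exon length and GC content. With voom on recovered reads more genes were called, 1690 of 21353, which is the background for the voom counts below. An unadjusted p under 0.05 with limma was found for at least 4747 of the 21369 genes. That is the background for the counts of such p-values over all 6 libraries below. The log2 fold change (ACD minus control) was positive for 8 of the 10 and negative for Nes and Cd44 (0.00 for Cd44 after quantile normalization), with a median of 0.34, beside -0.01 over all genes tested. Leaving aside the adipocyte genes, the medians of the marker lists of other cells ran from -0.21 (endothelial) to 1.23 (neutrophil). Microglia markers were at 0.33 and oligodendrocyte markers at 0.36, so a median of this size was not particular to the 10. In 3 members, Gfap, Lcn2 and Serpina3n, the lowest ACD library lay above the highest control, which held for 13.1% of all genes, and in none did the highest ACD library lie below the lowest control, which held for 15.5%.

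**Figure D1:**
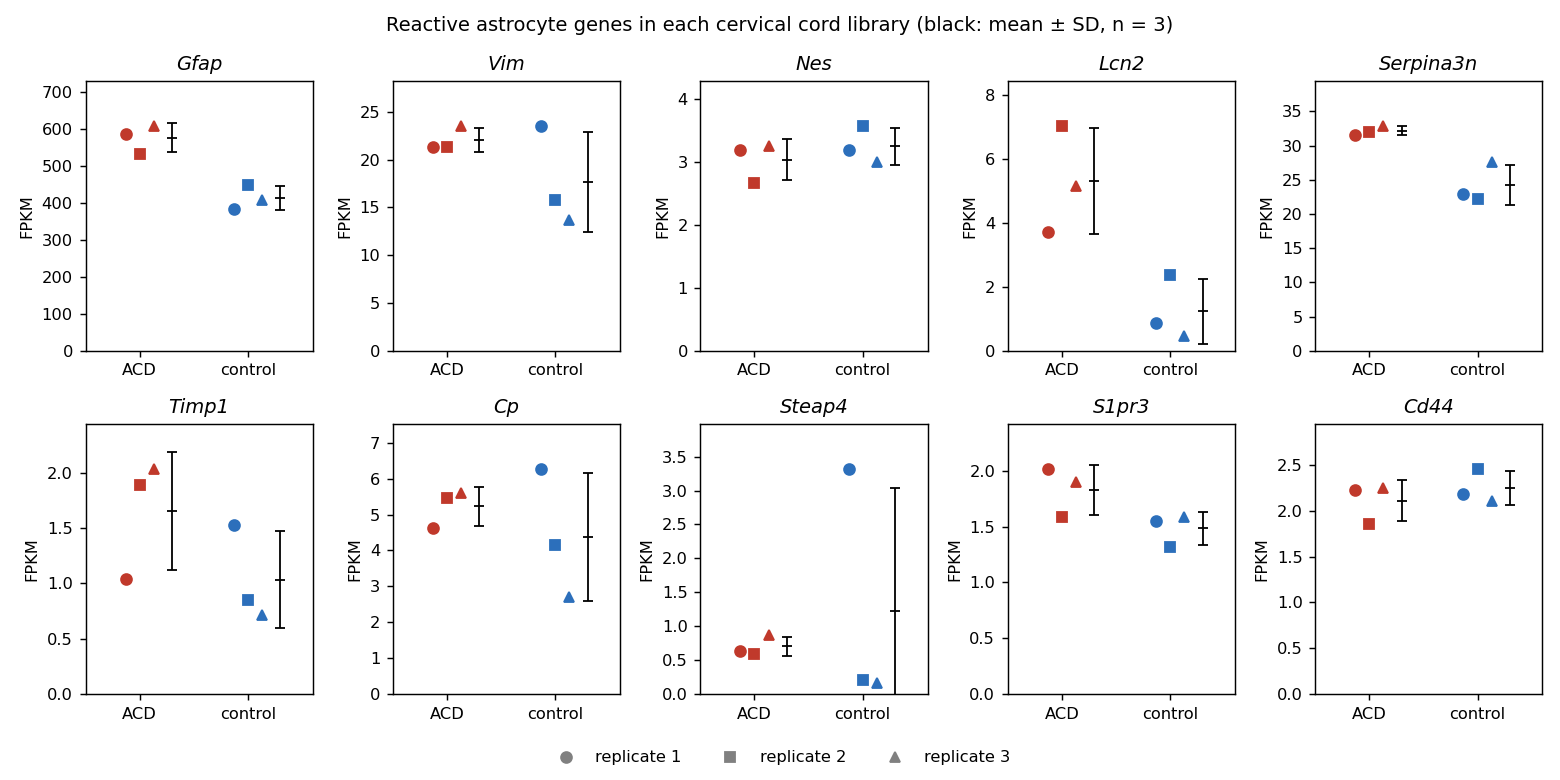
FPKM of each of the 10 genes (vertical axes from 0) in the 3 ACD and 3 control libraries, with mean and SD in black; SD bars that reach below 0 are cut at 0. Gfap, Lcn2 and Serpina3n separate the groups, while control 1 is the highest library of all for Vim, Cp and Steap4.

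Gfap encodes the main intermediate filament protein of astrocytes and lies on chromosome 11 at 102887336 to 102900912, minus strand (GRCm38). It was at 587, 533 and 608 FPKM in ACD 1 to 3, against 382, 448 and 408 FPKM in controls 1 to 3. The groups did not overlap, and the lowest ACD library was 1.19 times the highest control, about the spread of 1.17 times between the lowest and highest control. The mean was 576 ± 38.5 FPKM in ACD and 413 ± 33.4 in controls (SD, n = 3 each). The log2 fold change of Gfap, which rose, was 0.48 (SE 0.09, 95% interval 0.27 to 0.69, adjusted p = 0.0332 with limma), on 27277 to 46899 reads a library. The estimate was positive in all 16 alternative analyses, and the call was kept in 7 of them. The adjusted p with limma was 0.0513 after TPM scaling, 0.0512 after the correction for length and GC, and 0.179 after quantile normalization, where the log2 fold change was 0.25. It was 0.118, 0.0735 and 0.123 without ACD 1, 2 or 3, and 0.0898, 0.0367 and 0.0601 without control 1, 2 or 3, so among the single libraries only control 2 could be left out with the call kept.

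The RefSeq promoter of Gfap, from 250 bases before to 50 after the gene start (GRCm38.p6, chr11:102897151-102897450, minus strand), is shown because Gfap was the member that rose and because it holds the letters TTCNNNGAA, the core of the sequence that STAT proteins bind. The capitals mark that match, whose first base lies 2 bases before the start. The RefSeq start, at 102897200, is also the start of the GENCODE transcript Gfap-202, and Gfap-201 starts 69 bases downstream of it; the annotated gene span reaches farther upstream, to 102900912, through the processed transcript Gfap-203.
Gfap: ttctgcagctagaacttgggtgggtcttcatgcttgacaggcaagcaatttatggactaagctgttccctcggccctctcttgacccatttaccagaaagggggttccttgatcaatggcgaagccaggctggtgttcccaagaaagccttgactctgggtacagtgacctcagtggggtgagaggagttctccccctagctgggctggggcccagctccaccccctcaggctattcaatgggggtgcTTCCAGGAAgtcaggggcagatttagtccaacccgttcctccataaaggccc
The same letters, which read alike on both strands, are found in 2 of the 10 members' promoters, those of Gfap and Steap4, and in 8.30% of the 32851 mouse promoters of that length. The letters TGANTCA, the core of the AP-1 site, which also read alike on both strands, are found in 1, that of Cp, and in 7.81% of all. A match of letters is a description and not a measured binding site.

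Vim and Nes encode vimentin and nestin, the filament proteins that reactive astrocytes make together with GFAP and that vessel, meningeal and ependymal cells make as well. Vim was at 21.3, 21.3 and 23.5 FPKM in ACD, against 23.5, 15.8 and 13.6 FPKM in controls. The ACD libraries lay close together, and control 1 was level with the highest of them. The mean was 22.1 ± 1.28 FPKM in ACD and 17.6 ± 5.21 in controls (SD, n = 3 each). Vim differed by 0.36 on the log2 scale (SE 0.19, 95% interval -0.08 to 0.80, adjusted p = 0.311 with limma) and did not pass. Without control 1 the difference was 0.58 (SE 0.09, adjusted p = 0.0535 with limma) while it was 0.30 without control 2 and 0.19 without control 3 (adjusted p = 0.482 and 0.537). Nes was at 3.19, 2.66 and 3.25 FPKM in ACD, against 3.20, 3.57 and 2.99 FPKM in controls, and the groups overlapped. The 95% interval of its difference, -0.37 to 0.17, corresponds to 0.774 to 1.13 times the control level, so a rise as large as the estimate for Gfap lay outside it.

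Among the secreted members Lcn2 and Serpina3n separated the groups. Lcn2 encodes lipocalin 2, which binds iron-carrying siderophores and is made by reactive astrocytes and, as a granule protein, by neutrophils. It was at 3.71, 7.02 and 5.15 FPKM in ACD, against 0.856, 2.36 and 0.462 FPKM in controls. Each ACD library was above each control, by 1.57 times between the nearest pair. The mean was 5.30 ± 1.66 FPKM in ACD and 1.23 ± 1.00 in controls (SD, n = 3 each), and Lcn2 had the largest estimate of the 10, 2.25 on the log2 scale (SE 0.53, 95% interval 0.99 to 3.51, adjusted p = 0.0655 with limma), and did not pass, on 21 to 373 reads a library. Without control 2 it was 2.83 (adjusted p = 0.0261 with limma), the only 1 of the 16 alternatives with a call. Without control 1 it was 2.15 (adjusted p = 0.148 with limma), and without control 3 it was 1.77 (0.0919). Without ACD 1, 2 or 3 the adjusted p with limma was 0.126, 0.182 and 0.175.

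Neutrophil markers varied between the libraries as well, and control 2 was the highest control both for their sum and for Lcn2. Of the 11 markers, none was called with limma and 1 with voom. An unadjusted p under 0.05 was found for 4 of them, beside at least 4747 of all 21369 genes tested. All 11 markers had a positive log2 fold change, and the median was 1.23. None was at 0 in all libraries. The smallest p was that of Mpo, the myeloperoxidase of neutrophil granules, at 0.354, 0.346 and 0.351 FPKM in ACD, against 0.0345, 0.157 and 0.0674 FPKM in controls (1.33, adjusted p = 0.0815 with limma). The summed neutrophil markers of control 2 lay inside the ACD range, and its Lcn2, at 2.36 FPKM, lay below the lowest ACD library at 3.71. Marker by marker the picture differed from the sum. In 3 of the 11 every ACD library lay above every control, control 2 included, and in 8 the groups overlapped, beside 13.1% of all genes with ACD apart and higher. The part of neutrophil RNA in the difference of Lcn2 was not tested.

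**Figure D2:**
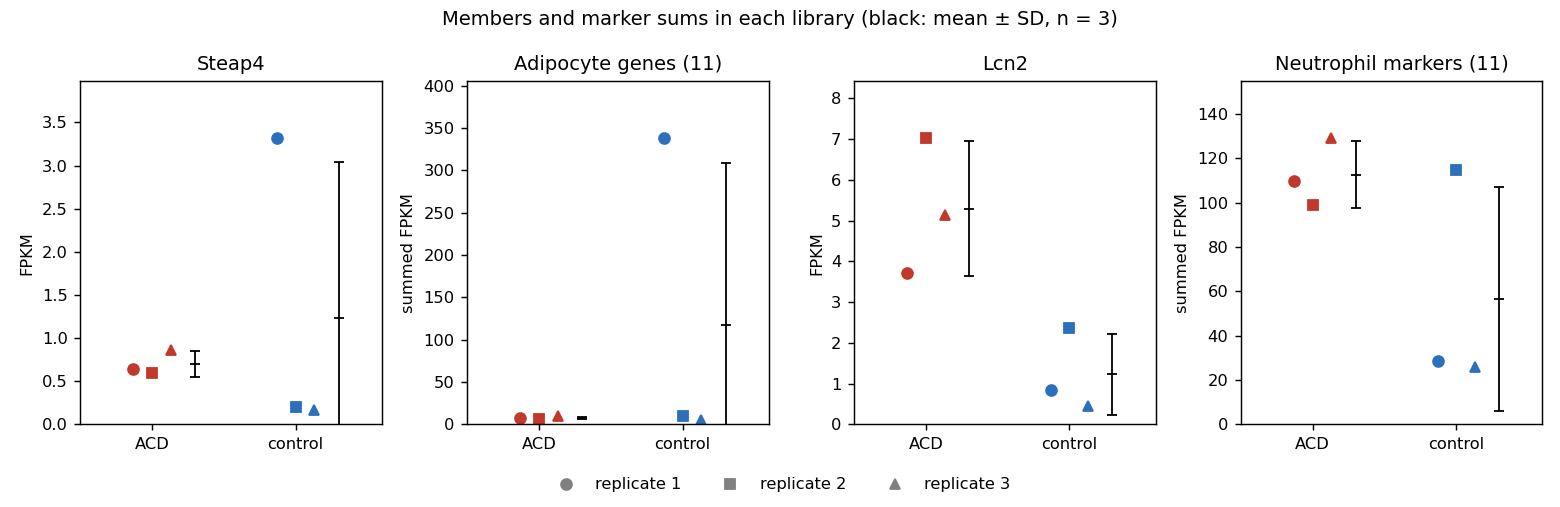
Steap4 and Lcn2 (FPKM) beside the summed FPKM of 11 adipocyte genes and 11 neutrophil markers in the 3 ACD and 3 control libraries, with mean and SD in black and SD bars cut at 0. Control 1 stands above all other libraries for Steap4 and for the adipocyte genes. Control 2 lies among the ACD libraries for the sum of the neutrophil markers, though not for each marker, and below them for Lcn2.

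Serpina3n encodes a secreted inhibitor of serine proteases that astrocytes of injured nervous tissue induce. It was at 31.6, 32.0 and 32.9 FPKM in ACD, against 22.9, 22.1 and 27.6 FPKM in controls. The ACD libraries differed by 1.04 times at most, and each was above the highest control, with means of 32.1 ± 0.665 FPKM in ACD and 24.2 ± 2.95 in controls (SD, n = 3 each). The log2 fold change was 0.41 (SE 0.09, 95% interval 0.20 to 0.63, adjusted p = 0.0536 with limma), which did not pass. It was called with a filter of 1 FPKM (adjusted p = 0.0392), with voom (0.0163) and without control 3 (0.0281), and not in any other alternative. Serpina3n has close copies beside it on chromosome 12, and 6.90% of its 50-base words also occur in other annotated transcripts, so a small part of its reads may be shared. Of 10 Serpina3 paralogs only Serpina3g, at 1.10, 1.502 and 0.909 FPKM in ACD and 0.983, 0.614 and 0.822 in controls, and Serpina3c, at 0.148 to 0.573 in ACD and 0.427 to 0.573 in controls, reached the filter, and neither was called.

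Timp1 encodes an inhibitor of matrix metalloproteinases. It was at 1.04, 1.89 and 2.03 FPKM in ACD, against 1.53, 0.848 and 0.714 FPKM in controls, and the groups overlapped. It rested on 11 to 34 reads a library, and its log2 fold change of 0.65 had a 95% interval of -0.14 to 1.43 (adjusted p = 0.305 with limma), which is 0.907 to 2.70 times the control level. Without control 1 the estimate was 0.94 (adjusted p = 0.175 with limma) and without control 3 it was 0.44 (adjusted p = 0.506), the highest and lowest with 1 library left out. The related inhibitors Timp2, Timp3 and Timp4 were more abundant, at 12.3 to 122 FPKM in ACD and 11.7 to 116 FPKM in controls over the 3 genes, and none was called.

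Cp and Steap4 act on iron and copper. Cp encodes ceruloplasmin, a copper-carrying ferroxidase that astrocytes hold at their surface, and Steap4 a metalloreductase of membranes that fat, liver and inflamed tissue also express. Cp was at 4.62, 5.47 and 5.60 FPKM in ACD, against 6.27, 4.15 and 2.70 FPKM in controls. Control 1 was the highest of the 6 libraries, and the log2 fold change of 0.33 did not pass (SE 0.28, 95% interval -0.32 to 0.98, adjusted p = 0.534 with limma). It was 0.62 without control 1 (adjusted p = 0.167) and 0.03 without control 3 (adjusted p = 0.944).

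Steap4 was at 0.640, 0.595 and 0.866 FPKM in ACD, against 3.32, 0.205 and 0.164 FPKM in controls, on 9 to 177 reads. The ACD libraries spread over 1.46 times, while the controls spread over 20.2 times. The ratio of the means, 0.570, and the log2 fold change, 0.28 (SE 0.94, 95% interval -1.97 to 2.54, adjusted p = 0.889 with limma), had opposite directions, so no direction can be read with all libraries. Without control 1 the log2 fold change was 1.48 (SE 0.26, adjusted p = 0.0633 with limma), and without control 2 or 3 it was -0.26 or -0.37. Each of the 11 adipocyte genes and each of 7 meningeal fibroblast markers were also highest in control 1 among the controls. So were most genes of the A1 list described below, except Iigp1 and Psmb8, highest in control 2, and Ugt1a1, at 0 in every library. In control 1 Steap4, Cp and Timp1 were at 18.0, 1.83 and 1.96 times the mean of the other controls, and Vim was also highest there. The part of adipocyte RNA or of other tissue in these levels was not tested.

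The RefSeq promoter of Steap4 (GRCm38.p6, chr5:7960222-7960521, plus strand) is shown to set beside that of Gfap, because it is the other member promoter with the STAT core letters, in capitals, with the first base 116 bases before the gene start.
Steap4: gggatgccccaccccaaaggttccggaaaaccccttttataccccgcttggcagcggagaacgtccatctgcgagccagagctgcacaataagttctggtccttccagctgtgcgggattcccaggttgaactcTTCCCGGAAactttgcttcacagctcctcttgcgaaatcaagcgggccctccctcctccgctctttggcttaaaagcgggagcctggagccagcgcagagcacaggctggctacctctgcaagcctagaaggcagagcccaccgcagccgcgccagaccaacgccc
Both matches begin with TTCC and end with GGAA, and they lie at different distances from the gene start.

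The receptors S1pr3 and Cd44 did not pass. S1pr3 encodes a receptor for sphingosine 1-phosphate, a lipid signal to which astrocytes and vessel cells respond. It was at 2.02, 1.58 and 1.90 FPKM in ACD, against 1.55, 1.31 and 1.59 FPKM in controls, and the groups overlapped only in that the lowest ACD library was 0.996 times the highest control. Its log2 fold change was 0.28 (SE 0.14, 95% interval -0.05 to 0.62, adjusted p = 0.288 with limma). Of its relatives S1pr1, the most abundant in both groups at 37.2 to 43.0 FPKM in ACD and 33.7 to 42.1 in controls, had a log2 fold change of 0.12 (adjusted p = 0.523).

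Cd44 encodes the receptor for the matrix sugar hyaluronan and is carried by white blood cells as well as by fibrous astrocytes. It was at 2.23, 1.85 and 2.25 FPKM in ACD, against 2.18, 2.45 and 2.11 FPKM in controls, and the groups overlapped. Its difference of -0.09 on the log2 scale had an interval of -0.38 to 0.20, which is 0.771 to 1.15 times the control level (adjusted p = 0.706 with limma), and it was 0.00 after quantile normalization.

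**Figure D3:**
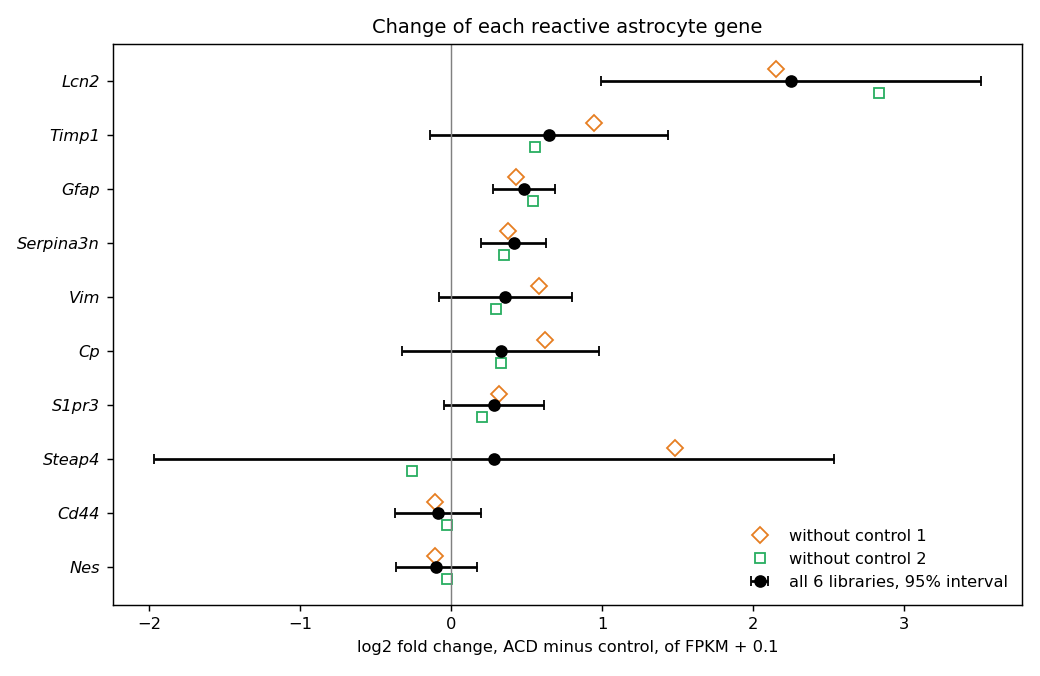
Log2 fold change (ACD minus control) of each of the 10 genes, with the 95% interval from all 6 libraries in black and the estimate without control 1 or without control 2 as open symbols. Lcn2 is the farthest right at 2.25, Nes and Cd44 lie at -0.10 and -0.09, and leaving out control 1 puts Steap4 at 1.48 in place of 0.28; Cd44 is at 0.00 after quantile normalization.

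Without control 1, 7 of the 10 genes had all ACD libraries above both other controls: Gfap, Vim, Lcn2, Serpina3n, Timp1, Cp and Steap4. This held for 17.8% of all genes tested. None of the 10 was called with limma in that comparison of 3 with 2 libraries, in which 1.14% of all genes were called. An unadjusted p under 0.05 was found for 7, against 3 with all 6 libraries. The share of all genes with such a p was not counted without control 1, so nothing is read from the 7. The median log2 fold change of the 10 was then 0.51. Without control 2 the groups did not overlap for Gfap, Lcn2 and Serpina3n, against 19.0% of all genes with ACD higher, and Gfap and Lcn2 were called, against 2.71% of all genes. Without control 3 they did not overlap for Gfap, Lcn2, Serpina3n and S1pr3, against 20.3% of all genes with ACD higher, and Serpina3n was called, against 2.93% of all genes. The adipocyte RNA of control 1 was seen in these same data.

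The 10 genes differed widely in level. Gfap alone made up 87.8% to 89.3% of their summed FPKM in ACD and 85.4% to 89.5% in controls, and 0.170% to 0.205% of the summed FPKM of all genes in ACD, against 0.137% to 0.150% in controls. Serpina3n and Vim followed, and the other 7 averaged 0.700 to 5.30 FPKM in ACD and 1.03 to 4.37 in controls. Within ACD, library 3 was the highest for 8 of the 10 genes, the exceptions being Lcn2, highest in ACD 2, and S1pr3, highest in ACD 1. The ACD libraries spread by at most 1.96 times in any of the 10, that of Timp1. The controls spread by over that in Lcn2 (5.11 times), Timp1 (2.14), Cp (2.32) and Steap4 (20.2).

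The members were also set against 14 genes of resting astrocytes. None of the 14 was called with limma or voom, 2 had an unadjusted p under 0.05, and the median log2 fold change was 0.11. The smallest p was that of Gjb6, a gap junction protein, at 54.7, 52.5 and 50.4 FPKM in ACD, against 47.6, 43.1 and 37.9 FPKM in controls (0.30, adjusted p = 0.118 with limma). Relative to the mean log2 level of these 14 genes, Gfap was at 2.85, 2.71 and 2.91 in ACD, against 2.39, 2.54 and 2.35 in controls. The groups did not overlap on this scale, with a difference of 0.40. The mean of the 14 genes itself separated the groups, at 6.35, 6.35 and 6.34 in ACD, against 6.19, 6.27 and 6.32 in controls, although their summed FPKM overlapped. On the same scale the groups were apart for Lcn2 and Serpina3n, with differences of 2.17 and 0.33, and overlapped for the other 7 members. Whether these 14 genes track the amount of astrocyte RNA was not tested.

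A set of 5 protein-coding genes was closest to Gfap in their pattern over the 6 libraries, by the root mean square difference of centred log2(FPKM + 0.1), among 12148 with a mean of at least 1 FPKM. They were Vcam1, a leukocyte adhesion molecule that vessels and astrocytes carry (0.03), Tmsb10, an actin-binding thymosin (0.05), Gstp1, a glutathione transferase (0.06), Mzt2, a protein of the gamma-tubulin complex (0.06), and Cadm4, a cell adhesion molecule of glia (0.06). Of the other members Serpina3n was nearest to Gfap (0.15) and Steap4 farthest (1.26). The likeness describes these 6 libraries, whose shared part includes the difference between the groups. Tmsb10 and Gstp1 share 27.02% and 33.7% of their words with other transcripts, so their levels are less certain.

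Other genes used to mark reactive astrocytes were read from lists that did not include the 10. Over these and all further lists 9 of 171 tested genes were called, all of them higher. Over all genes tested 4.34% were called and 1.81% were called higher. The lists were chosen with earlier results of these data known, so nothing is read from the counts per list. The count was 2, 2 and 1 without ACD 1, 2 or 3 and 7, 10 and 9 without control 1, 2 or 3. Of 4 further genes found in reactive astrocytes of several kinds, Hspb1, a small heat shock protein, rose to 52.4, 44.3 and 45.0 FPKM in ACD, against 34.6, 27.6 and 30.0 FPKM in controls (0.62, adjusted p = 0.0274 with limma). Of its 50-base words 50.1% occur in other transcripts, so its level is less certain. The other 3 were not called, and the median over the 4 was 0.45. Of 12 tested genes of the A1 type, a set first described in mouse astrocytes after systemic endotoxin, 2 were called higher and none lower, with a median of 0.44. H2-D1 and H2-T23, class I histocompatibility genes that present or display peptides, were the 2. H2-D1 was at 53.8, 52.5 and 50.3 FPKM in ACD, against 38.0, 32.7 and 33.4 FPKM in controls (0.59, adjusted p = 0.0133 with limma), and H2-T23 was at 7.26, 8.02 and 7.38 FPKM in ACD, against 5.42, 4.41 and 4.31 FPKM in controls (0.67, adjusted p = 0.0218). Both are also expressed by most other cells, and they share 12.8% and 14.5% of their words with other transcripts. The log2 fold change was positive for 11 of the 12 A1 genes. The exception was C3, named after its values were seen, at 5.18, 5.32 and 6.52 FPKM in ACD, against 10.1, 5.38 and 7.05 in controls. Its groups overlapped (-0.36, adjusted p = 0.383 with limma).

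Of 11 tested genes of the A2 type, a set first described after stroke, 1 was called higher and none lower, with a median of 0.08. It was Ptgs2, the inducible cyclooxygenase of prostaglandin synthesis, which neurons and vessel cells also make. Ptgs2 was at 1.17, 2.16 and 2.03 FPKM in ACD, against 0.439, 0.294 and 0.252 FPKM in controls, and each ACD library lay well above each control (2.12, SE 0.28, adjusted p = 0.0150 with limma). Among other intermediate filaments and the linkers that tie them to the cell, none of 8 was called with limma or voom, 1 had an unadjusted p under 0.05, and the median was 0.09. The smallest p was that of Plec, the linker plectin, at 9.44, 8.54 and 9.39 FPKM in ACD, against 11.7, 9.60 and 13.1 FPKM in controls (-0.32, adjusted p = 0.173 with limma).

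Of 16 tested ligands, receptors and substrates of the 10 genes, 1 was called higher and none lower, with a median of 0.07. It was Ftl1, the light chain of the iron store ferritin, at 87.2, 89.1 and 98.9 FPKM in ACD, against 59.6, 59.2 and 55.0 FPKM in controls (0.66, adjusted p = 0.00955 with limma). Ftl1 shares 58.4% of its words with other transcripts, so its level is less certain. None of the 13 tested paralogs of the secreted and receptor genes was called with limma or voom, 1 had an unadjusted p under 0.05 (Timp4, adjusted p = 0.224), and the median was 0.04.

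Of 15 tested genes of the IL-6, STAT3 and IL-1 inputs to astrocyte reactivity, 2 were called higher and none lower, with a median of 0.26. The groups did not overlap in 4 with ACD higher and in 2 with ACD lower, beside 13.1% and 15.5% of all genes. Il6ra, the interleukin 6 receptor, was at 1.601, 1.515 and 1.524 FPKM in ACD, against 0.793, 0.853 and 0.934 FPKM in controls (0.78, adjusted p = 0.0274 with limma). Cntfr, the receptor of ciliary neurotrophic factor, was at 41.4, 43.2 and 40.9 FPKM in ACD, against 32.4, 29.6 and 34.7 FPKM in controls (0.38, adjusted p = 0.0402). Stat3, Il1r1, Lifr, Jak2 and the 4 cytokines below the filter are named after their values were seen. Lifr, a receptor of the IL-6 family, was lower, at 9.19, 8.27 and 7.11 FPKM in ACD, against 10.1, 10.4 and 10.4 FPKM in controls (-0.33, adjusted p = 0.107 with limma). Jak2 was also lower in every ACD library than in every control (-0.18, adjusted p = 0.184 with limma). Il1r1, a receptor of interleukin 1, was at 2.85, 2.96 and 1.76 FPKM in ACD, against 1.51, 0.786 and 0.933 FPKM in controls, and was not called with limma. Stat3 was at 9.37, 9.61 and 10.2 FPKM in ACD, against 8.08, 8.39 and 9.64 FPKM in controls (0.16, adjusted p = 0.312). Il6, Osm, Il1b and Tnf did not reach the filter.

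**Figure D4:**
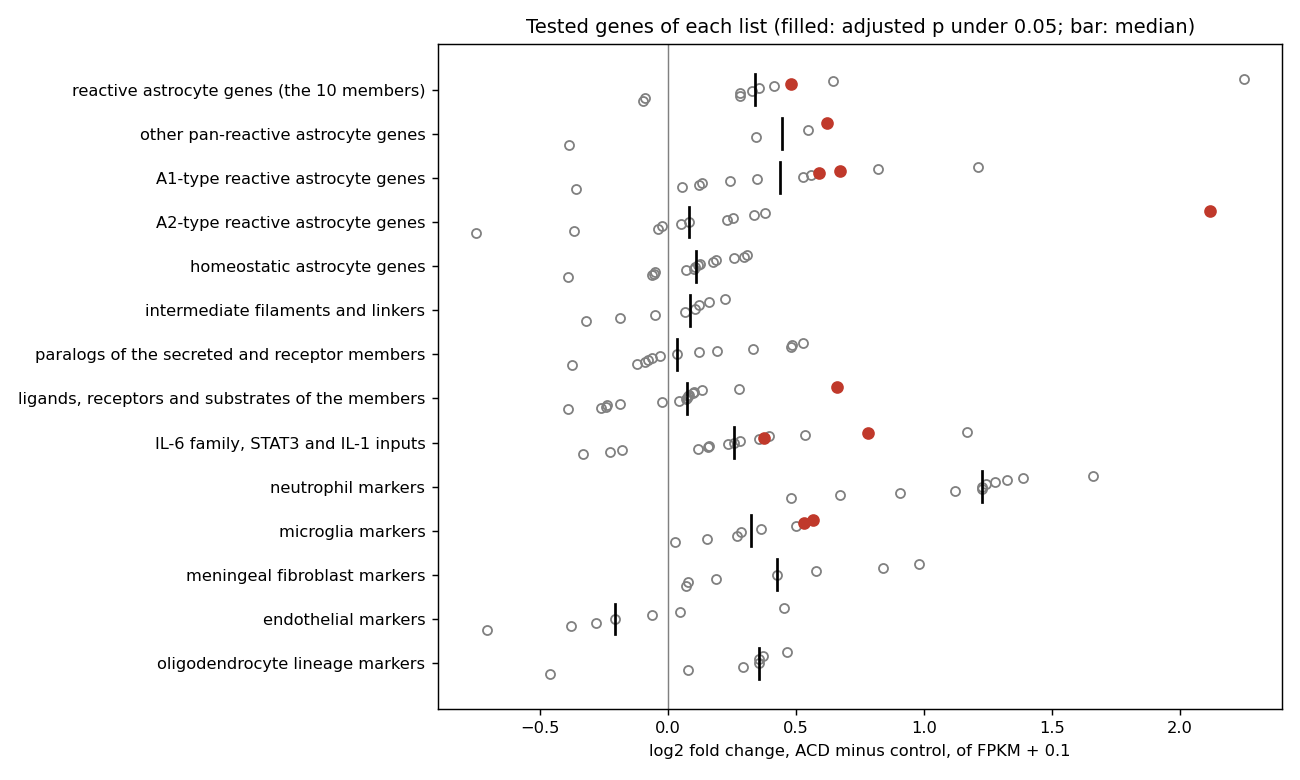
Log2 fold change (ACD minus control) of each tested gene in the 10 reactive astrocyte genes and in other lists, with called genes filled in red, the rest as open circles and the median of each list as a vertical bar. The medians of the lists of reactive astrocyte genes lie at 0.08 to 0.45, that of neutrophil markers at 1.23 and that of endothelial markers at -0.21. Those of microglia, oligodendrocyte lineage and meningeal fibroblast markers lie at 0.33, 0.36 and 0.43.

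Markers of other cells that moved with the groups stand beside these results. Summed microglia markers were at 106, 105 and 97.1 FPKM in ACD, against 76.6, 93.6 and 83.4 FPKM in controls, and 2 of 8, Tmem119 and Olfml3, rose (0.53 and 0.57, adjusted p = 0.0394 and 0.0384 with limma). Summed Schwann cell markers were at 489, 353 and 398 FPKM in ACD, against 239, 266 and 186 FPKM in controls, with none of 4 called with limma, 1 with voom and 3 with an unadjusted p under 0.05. The 4 haemoglobin genes, which stand for blood in the tissue, summed to 475, 763 and 551 FPKM in ACD, against 98.1, 275 and 384 FPKM in controls, with none called with limma or voom and 2 with an unadjusted p under 0.05. In these 3 lists, and in 8 monocyte and macrophage markers (7.92 to 11.6 FPKM summed in ACD and 3.11 to 6.69 in controls; none called with limma, 2 with voom, 4 with an unadjusted p under 0.05), the groups did not overlap. No gene of the 4 lists was at 0 in all libraries, and their part in the differences of Gfap, Lcn2 and Serpina3n was not tested.

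Meningeal fibroblasts also make Vim, Timp1 and Cd44, and 7 markers of these cells summed to 32.1, 43.8 and 42.7 FPKM in ACD, against 42.7, 24.5 and 18.8 FPKM in controls. Control 1 was the highest control for each of the 7, as for Vim, Timp1, Cp and Steap4. It was not the highest for Cd44, at 2.18 FPKM in control 1 and 2.45 in control 2. The part of meningeal fibroblasts in the levels of these members was not tested. None of the 7 was called with limma or voom, and 3 had an unadjusted p under 0.05, the smallest that of Col3a1 (0.98, adjusted p = 0.0767). Endothelial, mural, ependymal, oligodendrocyte and neuron markers gave summed levels that overlapped between the groups. Over these 5 lists none of 36 genes was called with limma, while 1 endothelial, 1 oligodendrocyte and 1 neuron marker were with voom. Voom called 1690 of 21353 genes over all, and at least 4747 of 21369 had an unadjusted p under 0.05 with limma. With an unadjusted p under 0.05 there were 1 endothelial, 1 mural, 0 ependymal, 4 oligodendrocyte and 2 neuron markers.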

How the data were processed

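RNA-seq libraries of 3 ACD and 3 control cervical cords were analysed. The authors deposited FPKM per Ensembl gene for each library; the unit was settled from the values, since the files do not name it. Per the submitters' processing notes the mm10 build was used, with DESeq2 1.16.1, featureCounts 1.5.0-p3 and HISAT2 2.0.5 listed without roles. Neither library kit, strand setting nor annotation release is stated in the sources used here. Without strand, reads from opposite-strand overlaps, such as 108 exon bases of Cp with Hps3 and 45 of S1pr3 with Gm32834, cannot be told apart.

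Genes whose mean reached 0.1 FPKM entered limma 3.58.1 (R 4.3.3; lmFit, eBayes with trend and robust) on log2(FPKM + 0.1), which understates changes of low genes, with Benjamini-Hochberg adjustment at 0.05 over all 21369 genes. Reads were recovered from FPKM steps and GENCODE M21 exon lengths (96.9% of values whole within 0.05 reads); for a gene of 2 kb, 1 read was worth 0.0247 to 0.0296 FPKM. Symbols were found for 54495 of 54532 identifiers, and promoters of all 10 genes in RefSeq. Shared sequence was measured as 50-base words of each gene's transcripts that occur in other genes. Alternatives were pseudocounts of 1 and 0.01, other filters, TPM scaling, quantile normalization, removal of a loess trend on length and GC (chosen after seeing the data), eBayes without robust, a replicate block, voom on recovered reads and leaving out each library. The code was tested on simulated data, where false calls were limited only for genes averaging at least 10 reads. Calls of genes with fewer reads are therefore less certain.

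The 10 genes and all lists were chosen with earlier results of these data known. Beyond the 10, named genes are those of each list past the threshold (at most 4, by p), otherwise the one with the smallest p, the tested paralogs, and the 5 most like Gfap. P-values measure the spread between 3 mice a group.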

Additional observations from a re-analysis of the deposited data

How the results depend on the processing

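Nes, Vim, Timp1, Cp and S1pr3 kept their direction and stayed uncalled in all 16 alternatives. The count of all genes called was 927, against 556 with no filter, 568 after quantile normalization, 1690 with voom and 180 to 627 with 1 library left out. Of the 10 genes 1 was called, against 2 with a filter of 1 FPKM (Gfap and Serpina3n), 2 with voom (the same genes), 0 after TPM scaling, 0 after quantile normalization, 0 after the correction for length and GC, and 0 to 2 with 1 library left out. Of 171 tested genes of the other lists 9 were called, against 20 with voom and 1 to 10 with 1 library left out. The median of the 10 genes was 0.26 to 0.51 with 1 library left out, 0.51 being without control 1. The estimate of Steap4 was -0.10 with a pseudocount of 1, and with 1 library left out it lay between -0.37 (without control 3) and 1.48 (without control 1), at -0.26 without control 2, and that of Cd44 was 0.0035 after quantile normalization. The causes were not tested. TPM scaling put the median of all genes at -0.10, so changes on that scale are relative to it.

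Replicate numbers are shared by the groups but did not pair the libraries: the deviations of same-numbered libraries correlated at -0.07, 0.08 and 0.05 over 13650 genes. With the replicate block 181 genes, 0 of the 10 genes and 2 of the other lists were called (Gfap 0.48, adjusted p = 0.0949 with limma). Depth limits Timp1 and Steap4 most, with as few as 11 and 9 reads in a library.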
